A study of Mus musculus with 2 samples.

Results

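The cells described here are those with the fewest detected genes among leukemia cells of 2 droplet libraries. A cell was a member when fewer than 500 genes had at least 1 UMI (unique molecular identifier, a tag that stands for 1 captured transcript) in it, and 898 of the 8309 deposited cells met this limit. The study kept cells with 500 or more detected genes for its own analyses. The members were chosen on the number of detected genes in the same cells that are described, so every transcript value below is a description of the chosen cells and carries no test. The limit falls in a continuous range of detected genes and does not mark a cell type.

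The series holds mouse acute myeloid leukemia driven by the MLL-AF9 fusion, which was delivered by retrovirus to lineage-depleted bone marrow cells together with a fluorescent reporter (YFP by the labels and the study's methods, GFP by its results text). Donor mice were C57Bl/6 animals homozygous for the floxed Kat2a allele (Kat2a Fl/Fl), and donors of both genotypes were injected with pIpC, an inducer of the interferon response that turns on the Mx1-Cre recombinase. Kat2a WT donors lacked Mx1-Cre and Kat2a KO donors carried it, and marrow was taken 4 to 6 weeks after injection. Live reporter-positive cells of 5 primary leukemias (WT) or 4 primary leukemias (KO) were pooled, and 1 library aimed at 6000 cells was made from each pool. Cells could not be assigned to the individual leukemias of a pool. Mx1-Cre acts in interferon-responsive cells in general and not in blood cells alone, but the transduced cells were blood progenitors.

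With 1 library per genotype there was no replicate of either genotype, and no p-value is given. Intervals are 95% intervals for counting error only (exact binomial for shares, exact Poisson for levels, and conditional binomial for log2 ratios). They do not cover differences between leukemias or between captures, nor the clustering of UMIs in single cells. Which barcode ending belonged to which genotype came from the code published with the study, not from the sample labels, so the names given to the libraries are labels only. With this assignment 3866 (WT) and 3545 (KO) cells had 500 or more genes, and the study likewise states more WT than KO cells after its filter. Kat2a, the targeted acetyltransferase gene (chr11:100704746-100712465, GRCm38), went against that assignment. In cells with 500 or more genes it was at 12.2 CPM (UMIs of a gene per 1000000 UMIs of a group) in the labelled-WT library and 95.8 CPM in the labelled-KO library. In the low-gene cells it had 0 UMIs in the labelled-WT library, where 3 UMIs would be 13.4 CPM, and 24.1 CPM in the labelled-KO library. The method reads the 3′ end of a transcript, which the study places downstream of the excised stretch, so Kat2a counts do not check the deletion. The libraries are therefore called the labelled-WT library and the labelled-KO library throughout. A total of 28 barcode sequences occurred in both libraries, and 11 low-gene cells carried one of them.

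The share of low-gene cells differed between the libraries. They were 203 of 4069 cells (4.99%, 4.34 to 5.70) in the labelled-WT library and 695 of 4240 cells (16.4%, 15.3 to 17.5) in the labelled-KO library. The labelled-KO library was shallower, with a median of 1674 UMIs per cell over all its cells against 2502 in the labelled-WT library. The lowest UMI total of a called cell was 873 in the labelled-WT library and 749 in the labelled-KO library. Among cells of the labelled-KO library with at least 873 UMIs, 417 of 3928 (10.6%, 9.67 to 11.6) had under 500 genes. Genotype, pool, depth and the lowest called total cannot be told apart as sources of this difference.

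Neutrophils mature from promyelocytes through myelocytes and metamyelocytes to segmented cells. Granule proteins are made in sequence: primary (azurophil) granule enzymes such as myeloperoxidase and neutrophil elastase first, then secondary and tertiary granule proteins such as lactoferrin, cathelicidin and the gelatinases. Proliferation ends at the myelocyte stage, and later cells have few ribosomes and little RNA. The 4 genes given as markers of the low-gene cells belong to this lineage. Ngp encodes neutrophilic granule protein, Camp the cathelicidin antimicrobial peptide, Lcn2 the siderophore-binding lipocalin of secondary granules, and S100a9 a subunit of calprotectin, the main cytosolic protein of neutrophils.

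The stretches before the start sites of these genes are printed because the genes were high together in the same cells. Each line gives the 250 bases upstream of the RefSeq transcript start (GRCm38.p6), 5′ to 3′ on the gene's strand. Capitals mark letters that match the C/EBP core TTNNGNAA or the PU.1 core GAGGAA, searched on both strands, where N is any base. C/EBP and PU.1 factors are known regulators of granulocyte genes. The last 3 lines hold the genes with the highest ratios in the low-gene cells that are described further on.
Ngp (chr9:110419558-110419807, plus strand): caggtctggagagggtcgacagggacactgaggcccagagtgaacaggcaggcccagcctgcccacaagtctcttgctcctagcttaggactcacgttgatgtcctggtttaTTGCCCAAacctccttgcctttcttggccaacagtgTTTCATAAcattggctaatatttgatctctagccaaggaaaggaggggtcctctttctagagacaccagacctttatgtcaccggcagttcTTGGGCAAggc
Camp (chr9:109849457-109849706, minus strand): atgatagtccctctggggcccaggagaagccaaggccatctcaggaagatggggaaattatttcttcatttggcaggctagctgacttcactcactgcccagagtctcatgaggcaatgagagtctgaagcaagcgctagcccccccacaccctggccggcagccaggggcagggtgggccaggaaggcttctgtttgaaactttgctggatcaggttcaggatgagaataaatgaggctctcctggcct
S100a9 (chr3:90695722-90695971, minus strand): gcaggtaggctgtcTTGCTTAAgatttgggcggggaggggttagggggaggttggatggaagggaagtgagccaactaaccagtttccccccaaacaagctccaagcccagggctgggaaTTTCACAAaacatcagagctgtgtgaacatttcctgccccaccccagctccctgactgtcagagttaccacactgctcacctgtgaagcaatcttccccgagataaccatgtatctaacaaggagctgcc
Lcn2 (chr2:32387740-32387989, minus strand): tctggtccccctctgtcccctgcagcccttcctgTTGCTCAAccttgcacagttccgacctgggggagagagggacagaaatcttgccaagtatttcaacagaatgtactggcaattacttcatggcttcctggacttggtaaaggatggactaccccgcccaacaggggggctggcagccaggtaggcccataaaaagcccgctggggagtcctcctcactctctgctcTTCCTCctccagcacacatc
Retnlg (chr16:48872358-48872607, plus strand): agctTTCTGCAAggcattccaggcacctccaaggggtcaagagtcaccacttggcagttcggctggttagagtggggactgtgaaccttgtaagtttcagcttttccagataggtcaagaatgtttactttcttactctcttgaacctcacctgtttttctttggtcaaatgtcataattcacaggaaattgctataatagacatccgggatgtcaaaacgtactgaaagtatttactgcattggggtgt
Mmp8 (chr9:7558179-7558428, plus strand): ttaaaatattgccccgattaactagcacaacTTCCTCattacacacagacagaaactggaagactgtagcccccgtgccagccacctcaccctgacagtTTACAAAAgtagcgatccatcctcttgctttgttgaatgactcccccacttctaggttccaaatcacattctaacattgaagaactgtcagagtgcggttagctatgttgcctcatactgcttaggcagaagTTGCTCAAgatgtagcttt
Ltf (chr9:111019042-111019291, plus strand): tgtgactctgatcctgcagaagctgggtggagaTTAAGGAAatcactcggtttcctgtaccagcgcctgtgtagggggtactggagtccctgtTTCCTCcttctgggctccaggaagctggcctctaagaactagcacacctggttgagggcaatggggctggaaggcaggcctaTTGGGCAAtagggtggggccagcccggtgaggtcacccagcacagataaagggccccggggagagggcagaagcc

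The C/EBP core occurred 3 times upstream of Ngp, 2 times each upstream of S100a9, Mmp8 and Ltf, and 1 time each upstream of Lcn2 and Retnlg. It had no match in the Camp window. The PU.1 core occurred 1 time each upstream of Lcn2, Mmp8 and Ltf. No match of one motif overlapped a match of the other. Of all 32851 upstream windows of the same length, 36.8% held the C/EBP core and 23.3% the PU.1 core. A match of letters is not a binding site, and no binding was measured in these cells.

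Low-gene cells had few UMIs, but a low UMI total alone did not define them. In the labelled-WT library they had a median of 1063 UMIs (873 to 3977) and 456 genes (315 to 499), against 2588.5 UMIs (873 to 11944) and 1050.5 genes (500 to 2991) in the other cells. In the labelled-KO library they had a median of 907 UMIs (749 to 4432) and 440 genes (268 to 499), against 1884 UMIs (775 to 11908) and 819 genes (500 to 2846). Together they held 1.88% and 7.75% of the UMIs of their libraries. The upper quartile of UMIs in low-gene cells was 1191.5 and 1046, and 215 (5.56%) and 262 (7.39%) of the other cells had no more than that. The ranges of UMIs therefore overlapped, while detected genes did not, by construction.

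**Figure D1:**
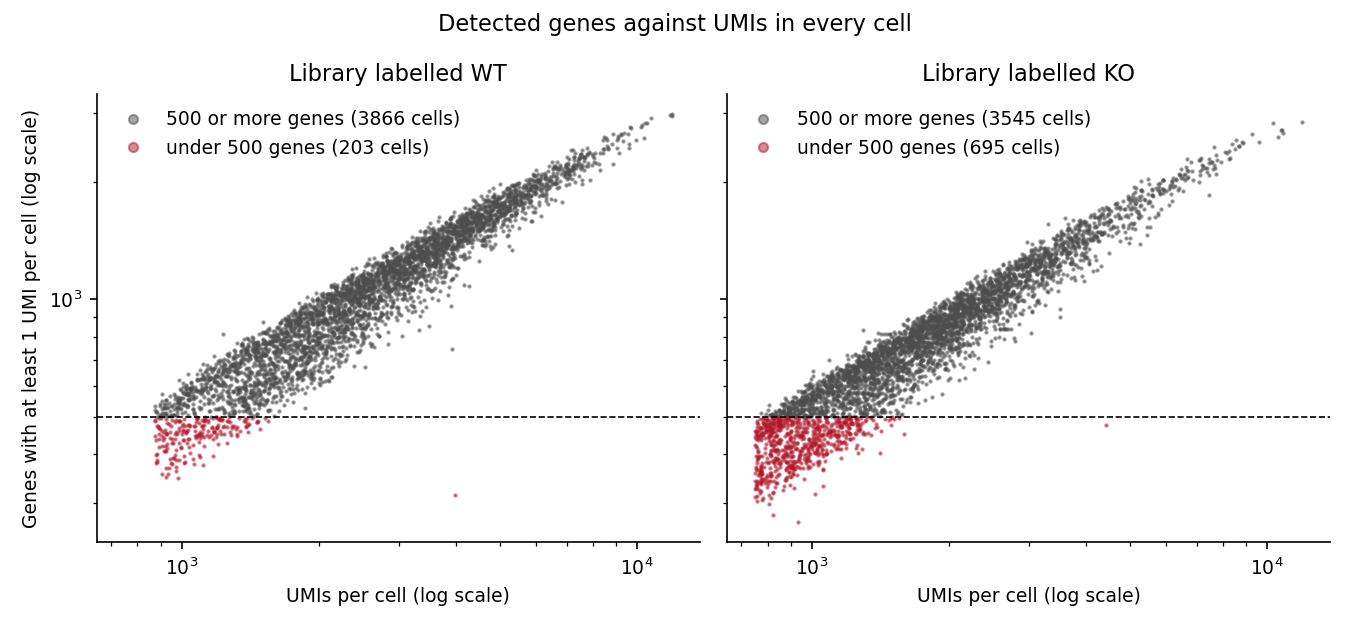
Genes with at least 1 UMI (vertical axis, log scale) against UMIs (horizontal axis, log scale) in every cell, 1 point per cell, for each library. Red points are the 203 and 695 cells under the limit of 500 genes (dashed line), and the red points at the far right are a cell with 3977 UMIs and 315 genes (labelled-WT library) and a cell with 4432 UMIs and 475 genes (labelled-KO library).

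Detected genes at equal UMIs are given as a description only, since cells were chosen on detected genes and the direction follows from that choice. When every cell was thinned to 300 UMIs, low-gene cells had a median of 169 genes and the other cells 222 in the labelled-WT library, and 181 against 223 in the labelled-KO library. No cell had too few UMIs for this step. At 500 UMIs the medians were 255 against 334 and 266 against 334. Each low-gene cell was also paired with another cell of its library whose UMI total lay within 10% of its own, which was possible for 203 of 203 and 533 of 695 cells. The pairs serve below to compare transcripts, not detected genes, which the limit keeps apart in every pair. At equal UMIs the limit also favors comparison cells whose UMIs are spread over more genes. The 4 markers took 3.02% and 2.48% of UMIs in the paired comparison cells, against 5.91% and 5.77% in all other cells. Paired ratios are therefore partly set by the limit and are descriptions too. Median UMIs were 1063 and 1064 in the pairs of the labelled-WT library, and 971 and 1051 in those of the labelled-KO library.

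The transcripts of low-gene cells were concentrated in few genes. The 10 most abundant genes took 31.4% of their summed UMIs in the labelled-WT library and 25.6% in the labelled-KO library, against 14.2% and 13.8% in the other cells. Within single cells the median share of the 10 leading genes was 34.7% against 15.6% (WT) and 30.7% against 15.2% (KO). Ngp led in both libraries with 7.49% and 9.25% of the UMIs of low-gene cells. S100a8, the partner subunit of S100a9, followed with 7.33% and 4.25%. When granule and mature neutrophil genes were left out before thinning to 300 UMIs, the medians were 215 against 235 genes and 216 against 233, a smaller difference than with all genes.

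The 4 markers took a larger share of UMIs in low-gene cells than in the other cells. Their sum was 16.9% against 5.91% of UMIs in the labelled-WT library and 14.5% against 5.77% in the labelled-KO library, log2 ratios of 1.52 and 1.33 (1.501 to 1.53 and 1.32 to 1.34). Ngp was at 74883 against 26642 CPM in the labelled-WT library and 92454 against 31445 CPM in the labelled-KO library, log2 ratios of 1.49 and 1.56. Lcn2 was at 13074 against 3341 CPM in the labelled-WT library and 6401 against 1867 CPM in the labelled-KO library, log2 ratios of 1.97 and 1.78. These 2 genes were at least 2-fold higher in both libraries, a size that 5.95% of the 1361 genes with a mean of 100 CPM or more over the 4 groups of cells reached (15% were at least 2-fold lower in both).

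S100a9 and Camp passed 2-fold in the labelled-WT library only. S100a9 was at 49648 against 14445 CPM in the labelled-WT library and 20309 against 10345 CPM in the labelled-KO library, log2 ratios of 1.78 and 0.97. Camp was at 31460 against 14671 CPM in the labelled-WT library and 25523 against 13998 CPM in the labelled-KO library, log2 ratios of 1.10 and 0.87. In the labelled-WT library, 7.86% of tested genes were at least 2-fold higher in low-gene cells and 28.9% at least 2-fold lower, against 7.71% and 16.5% in the labelled-KO library. The median tested gene had a log2 ratio of -0.43 (WT) and -0.24 (KO), so that a log2 ratio near these values is that of a typical gene. When the groups were scaled by the median of gene ratios instead of by total UMIs, 138 genes were at least 2-fold higher and 94 lower in both libraries, in place of 81 and 204. Higher genes then made up 59.5% of those past 2-fold, in place of 28.4%.

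Single cells fell into a marker-rich majority and a marker-poor minority. The 4 markers supplied 10% or more of the UMIs in 166 of 203 low-gene cells (81.8%) and in 443 of 695 (63.7%), against 32.1% and 27.2% of the other cells. They supplied under 2% in 14 (6.90%) and 175 (25.2%) low-gene cells, against 50.9% of the other cells in each library. Few low-gene cells lay between 2% and 5%, with 6 (2.96%) and 21 (3.02%) cells. The cut at 2% is a range of a score and not a cell type, and 6 and 21 low-gene cells had a share from 1% to 4%. The marker-rich majority carried transcripts of the neutrophil lineage, and the minority is described separately further on.

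**Figure D2:**
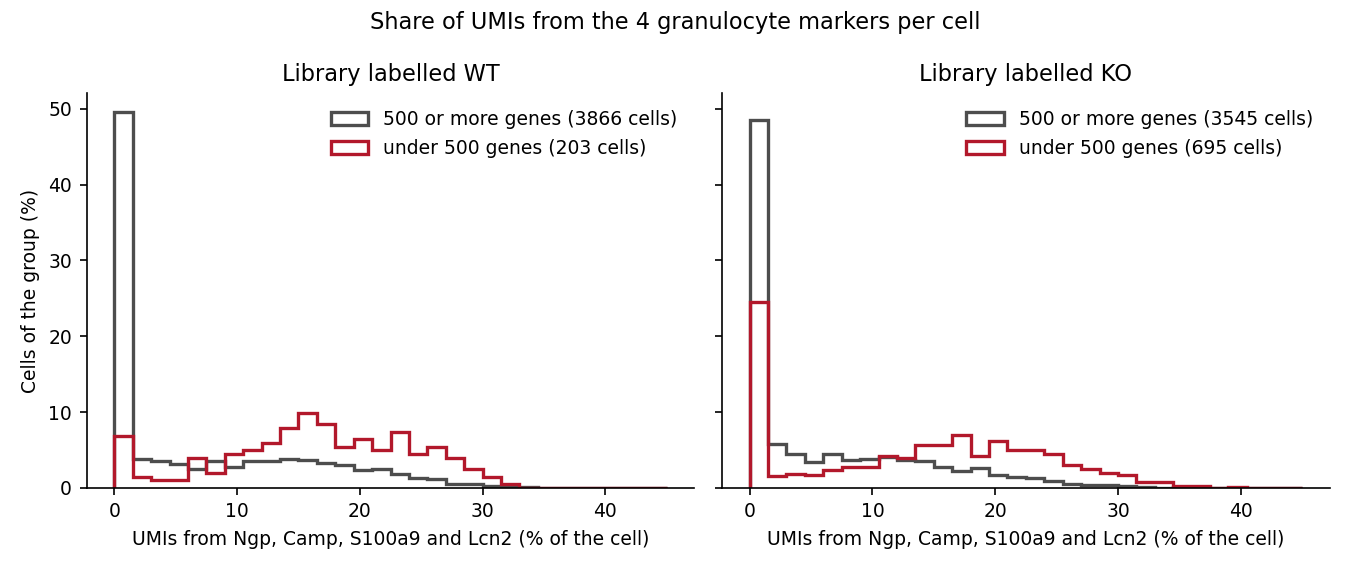
Share of each cell's UMIs from Ngp, Camp, S100a9 and Lcn2 (horizontal axis, percent) as the percentage of cells in each group (vertical axis), in bins of equal width. Between 15% and 20% lie 25.1% (WT) and 18.6% (KO) of the low-gene cells (red). A further group of low-gene cells lies under 2%, with 6.90% (WT) and 25.2% (KO), which holds the highest bin of the labelled-KO library, while 50.9% of the other cells (grey) in each library lie under 2%.

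The change in transcripts with detected genes was gradual on both sides of the limit. In cells with 450 to 499 genes the 4 markers took 16.1% of UMIs (121 cells, WT) and 11.4% (293 cells, KO). In cells with 500 to 549 genes they took 12.6% (154 cells) and 9.43% (310 cells). Ribosomal protein genes took 6.92% and 8.02% just under the limit, and 8.31% and 8.86% just above it. In cells with 300 to 399 genes the marker share reached 19.9% (30 cells) and 18.8% (190 cells), and in cells with 1000 or more genes it was 4.07% and 3.66%. The 3 cells with under 300 genes were all in the labelled-KO library.

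**Figure D3:**
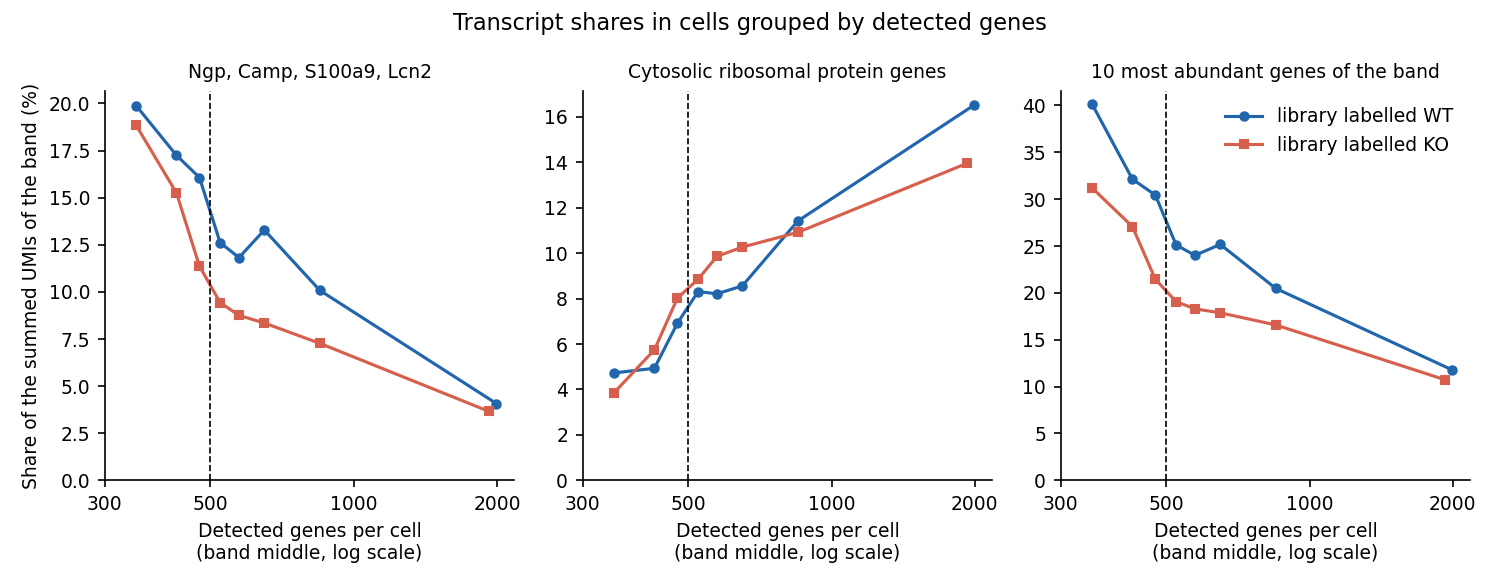
Share of summed UMIs (vertical axes, percent) from the 4 markers, from cytosolic ribosomal protein genes and from the 10 most abundant genes, in cells grouped into bands of detected genes (horizontal axis, middle of the band, log scale). The dashed line is the limit of 500 genes, and bands of under 20 cells are not drawn. Marker and top-10 shares are highest and ribosomal shares lowest in the bands with the fewest genes.

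Secondary and tertiary granule genes were high in low-gene cells. Their sum was 15.5% against 7.54% of UMIs in the labelled-WT library and 15.6% against 6.93% in the labelled-KO library, log2 ratios of 1.04 and 1.17. Of 11 tested members, 7 were at least 2-fold higher in both libraries, against 5.95% of all tested genes, and none was 2-fold lower. The filter of a mean of 100 CPM itself favored this count, since a member scarce in the other cells could pass through the low-gene cells alone. The median log2 ratio of tested members was 1.49 and 1.56. Ltf, which encodes lactoferrin, was at 2443 against 288 CPM in the labelled-WT library and 3474 against 324 CPM in the labelled-KO library, log2 ratios of 3.08 and 3.42. Mmp8, neutrophil collagenase, was at 757 against 76.5 CPM in the labelled-WT library and 549 against 34.3 CPM in the labelled-KO library, log2 ratios of 3.31 and 4.00. Mmp9, gelatinase B of tertiary granules, was at 834 against 102 CPM in the labelled-WT library and 362 against 42.9 CPM in the labelled-KO library, log2 ratios of 3.03 and 3.08. These 3 genes had larger ratios than any of the 4 markers, at far lower levels. Against cells paired on UMIs that order did not hold. There Mmp8 had 0.58 (0.23 to 0.93) and 3.07, Mmp9 2.06 and 2.48 and Ltf 3.15 and 3.85, while the sum of the 4 markers had 2.49 and 2.71.

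The other granule genes were closer to the markers or below them. Pglyrp1, a peptidoglycan-binding protein, had log2 ratios of 1.40 and 1.01. Itgb2l, an integrin beta chain of neutrophils, had 1.498 and 1.93. Cd177, a neutrophil surface glycoprotein, had 1.11 and 0.85, and Hp, haptoglobin, had 0.52 and 0.53. Chil3, a chitinase-like protein abundant from the myelocyte stage, was at 18906 against 23609.7 CPM in the labelled-WT library and 16743 against 15764 CPM in the labelled-KO library, log2 ratios of -0.32 and 0.087. Its direction thus differed between the libraries, with values near 0 in both. Olfm4 had a mean under 100 CPM and is given only by its levels in low-gene cells, 22.4 and 6.01 CPM.

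Genes of mature neutrophils showed larger ratios than the granule genes in the labelled-WT library. Their sum was 13.7% against 3.63% of UMIs in the labelled-WT library and 7.06% against 3.03% in the labelled-KO library, log2 ratios of 1.92 and 1.22. Of 15 listed members 10 were tested. At least 2-fold higher in both libraries were 8 of these, against 5.95% of all tested genes, and none was 2-fold lower. Members scarce in the other cells could reach a mean of 100 CPM through the low-gene cells alone, so the filter itself favored this count. Retnlg, a resistin-like secreted protein of mature neutrophils, had the highest ratio of all tested genes in both libraries together, by the ratio nearer 0. It was at 2748 against 77.1 CPM in the labelled-WT library and 1615 against 71.1 CPM in the labelled-KO library, log2 ratios of 5.15 and 4.51. Its UMIs were unevenly spread, with 71.5% of the 613 Retnlg UMIs of low-gene cells in 10 cells of the labelled-WT library and 30.4% of 1074 in 10 cells of the labelled-KO library. S100a8 was at 73336 against 18878 CPM in the labelled-WT library and 42483 against 18009 CPM in the labelled-KO library, log2 ratios of 1.96 and 1.24. Ifitm6, an interferon-induced transmembrane family member, had log2 ratios of 2.52 and 2.51.

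Further genes among the 10 with the highest ratios were Plbd1, a phospholipase B-like protein of granules (2.95 and 3.42), Ceacam10 (2.75 and 2.91) and Stfa2, a cysteine protease inhibitor of the stefin A family (3.62 and 2.76). The other 3 were class II antigen presentation genes that lay in few cells and are taken up further on. The stefin A family as a whole, listed after the values were seen, took 1.99% against 0.483% of UMIs in the labelled-WT library and 0.424% against 0.207% in the labelled-KO library, log2 ratios of 2.04 and 1.03. At least 2-fold higher in both libraries were 5 of 6 tested members, against 5.95% of all tested genes. Choosing the list after its values were seen favored this count, which is a description only. Stefin A genes are near-identical copies, so reads may be split between them and single members are uncertain. Among genes singled out after their values were seen, C5ar1, the receptor of the complement fragment C5a, had log2 ratios of 2.39 and 2.59. S100a6 had 2.44 and 2.30, Anxa1, which encodes annexin A1, had 2.05 and 2.15, and Lyz2, lysozyme, had 1.36 and 1.82.

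**Figure D4:**
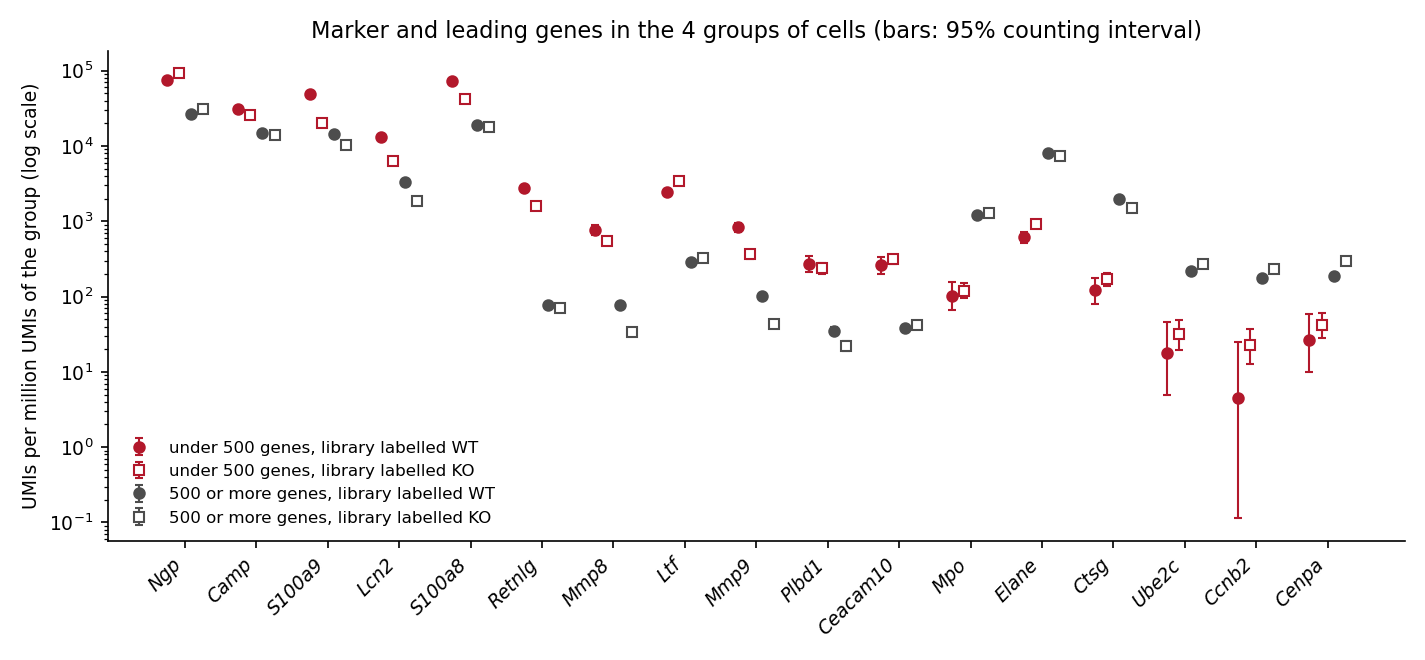
Level of marker and leading genes (vertical axis, UMIs per 1000000 UMIs of the group, log scale) in the 4 groups of cells, with 95% counting intervals. Red symbols (low-gene cells) lie above grey symbols (other cells) from Ngp to Ceacam10 and below them from Mpo to Cenpa, with filled circles for the labelled-WT library and open squares for the labelled-KO library.

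Primary granule genes were low in low-gene cells. Their sum was 0.236% against 1.65% of UMIs in the labelled-WT library and 0.375% against 1.53% in the labelled-KO library, log2 ratios of -2.81 and -2.03. At least 2-fold lower in both libraries were 6 of 8 tested members, against 15% of all tested genes. Mpo, myeloperoxidase, was at 103 against 1199 CPM in the labelled-WT library and 120.3 against 1303 CPM in the labelled-KO library, log2 ratios of -3.54 and -3.44. Elane, neutrophil elastase, was at 614 against 8056 CPM in the labelled-WT library and 907 against 7386 CPM in the labelled-KO library, log2 ratios of -3.71 and -3.03. Ctsg, cathepsin G, was at 121 against 1996 CPM in the labelled-WT library and 169.9 against 1486 CPM in the labelled-KO library, log2 ratios of -4.04 and -3.13. Prtn3, proteinase 3, had log2 ratios of -2.84 and -1.56, and Cd63, a tetraspanin of the granule membrane, -0.61 and -0.26. Against cells paired on UMIs the list was still lower (-0.60 and -1.07), but in the labelled-WT library Mpo and Elane were then slightly higher in low-gene cells (0.21 and 0.13).

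Transcripts of dividing cells were scarce. Of 23 listed mitosis genes 5 reached a mean of 100 CPM over the 4 groups of cells, as did 4 of 20 S phase genes. All of these were at least 2-fold lower in both libraries, as were 15% of all tested genes. Members scarce in low-gene cells could pass this filter through the other cells alone, so the filter itself favored these counts. Mitosis genes took 0.0188% against 0.191% of UMIs in the labelled-WT library and 0.0307% against 0.237% in the labelled-KO library, log2 ratios of -3.34 and -2.95, with 42 and 204 UMIs in all low-gene cells. S phase genes took 0.0332% against 0.221% of UMIs in the labelled-WT library and 0.0639% against 0.277% in the labelled-KO library, log2 ratios of -2.74 and -2.12. Ube2c, an enzyme of the ubiquitin pathway at mitotic exit, was at 17.9 against 220.1 CPM in the labelled-WT library and 31.6 against 269 CPM in the labelled-KO library, log2 ratios of -3.62 and -3.09. Cenpa, the centromeric histone, had log2 ratios of -2.78 and -2.84, Birc5, survivin, had -2.66 and -3.29, and Pcna, the replication clamp, had -2.33 and -1.66. Cdk1, the mitotic kinase, had -3.56 and -2.64. Ccnb2, a cyclin, had -5.31 and -3.38, which rested on 1 UMI in low-gene cells of the labelled-WT library. Against cells paired on UMIs the mitosis and S phase lists had smaller differences (-1.01 and -1.03 for mitosis, -0.95 and -0.57 for S phase).

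Genes of protein synthesis were also low over all low-gene cells. The marker-poor ones, taken up further on, had ribosomal shares of 23.7% (WT) and 12.7% (KO). Cytosolic ribosomal protein genes took 6.13% against 14.9% of UMIs in the labelled-WT library and 6.29% against 12.2% in the labelled-KO library, log2 ratios of -1.28 and -0.96. Of 78 tested members, 38 were at least 2-fold lower in both libraries, against 15% of all tested genes, and none was 2-fold higher. The median log2 ratio of members was -1.29 and -0.999. The lowest were Rpl3, with log2 ratios of -2.18 and -1.57, and Rps2, with -1.97 and -1.71. The highest were Rps27 (-0.31 and 0.0069) and Rps9 (-0.51 and -0.14). Ribosomal protein genes have many processed copies in the genome, and how reads shared with them were counted is not given in the sources used here. Nucleolar and chaperone genes, which serve ribosome assembly and protein folding, took 0.03% against 0.198% of UMIs in the labelled-WT library and 0.0619% against 0.212% in the labelled-KO library, log2 ratios of -2.72 and -1.78. Npm1, nucleophosmin, had -3.16 and -1.89, and Ncl, nucleolin, had -2.02 and -1.54. Fbl, fibrillarin, had 0 UMIs in low-gene cells of the labelled-WT library and 109.7 CPM in the labelled-KO library, against 195 and 219.7 CPM in the other cells.

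Mitochondrial transcripts were close to the typical gene. The nuclear genes of oxidative phosphorylation had log2 ratios of -0.59 and -0.49. At least 2-fold lower in both libraries were 4 of 61 tested members, against 15% of all tested genes, Atp5g2 (-1.75 and -1.88) and Ndufa12 (-1.54 and -1.20) among them. Mitochondrially encoded genes took 0.271% against 0.374% of UMIs in the labelled-WT library and 0.373% against 0.466% in the labelled-KO library, log2 ratios of -0.46 and -0.32. The marker-poor low-gene cells, taken up further on, differed from this in the labelled-WT library (1.26% against 0.439% in marker-poor cells with 500 or more genes). Malat1, a nuclear-retained RNA, was at 5101 against 3551 CPM in the labelled-WT library and 4618 against 2760.0 CPM in the labelled-KO library, log2 ratios of 0.52 and 0.74, and the ratio of the nuclear-retained list turned negative against cells paired on UMIs (-0.68 and -0.25).

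Several groups had no tested member past 2-fold in both libraries. Of all tested genes 5.95% were at least 2-fold higher and 15% at least 2-fold lower in both, so none among so few members is close to those shares. Single members passed 2-fold in 1 library, as Cebpb and Lmo2 did below. NADPH oxidase genes, which encode the enzyme of the respiratory burst, had log2 ratios of 0.56 and 0.44, and none of 6 passed 2-fold in both libraries. Cyba, a membrane subunit, had 0.57 and 0.51, and Ncf4, a cytosolic subunit, had 0.77 and 0.44. Of the granulocyte transcription factors, Cebpb had 0.44 and 1.01, Spi1 (PU.1) 0.46 and 0.54 and Cebpe 0.66 and 0.27, and none of 3 tested passed 2-fold in both libraries. Progenitor and self-renewal genes had -0.99 and -0.36, with Lmo2 at -1.07 and -0.18 and Mef2c at -0.59 and -0.21, and none of 3 tested passed. Cytoskeleton and ferritin genes had 0.45 and 0.33, with none of 10 past 2-fold.

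Immediate early and stress genes, which respond to cell handling among other stimuli, took 1.32% against 0.815% of UMIs in the labelled-WT library and 1.98% against 0.964% in the labelled-KO library, log2 ratios of 0.70 and 1.04. Of 10 tested members 2 (Junb and Zfp36) were at least 2-fold higher in both libraries and 1 (Hsp90aa1) was at least 2-fold lower, against 5.95% and 15% of all tested genes. Zfp36, which promotes mRNA decay, had log2 ratios of 1.19 and 1.27, and Hsp90aa1, a chaperone, had -2.12 and -1.77, both named after their values were seen. Junb was at 2062 against 871 CPM in the labelled-WT library and 3369 against 1170.2 CPM in the labelled-KO library, log2 ratios of 1.24 and 1.53. Dusp1 had log2 ratios of 0.78 and 1.27 and Fos 0.56 and 0.89. Against cells paired on UMIs the list had ratios of -0.63 and -0.091. The part of cell handling in these values was not tested.

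**Figure D5:**
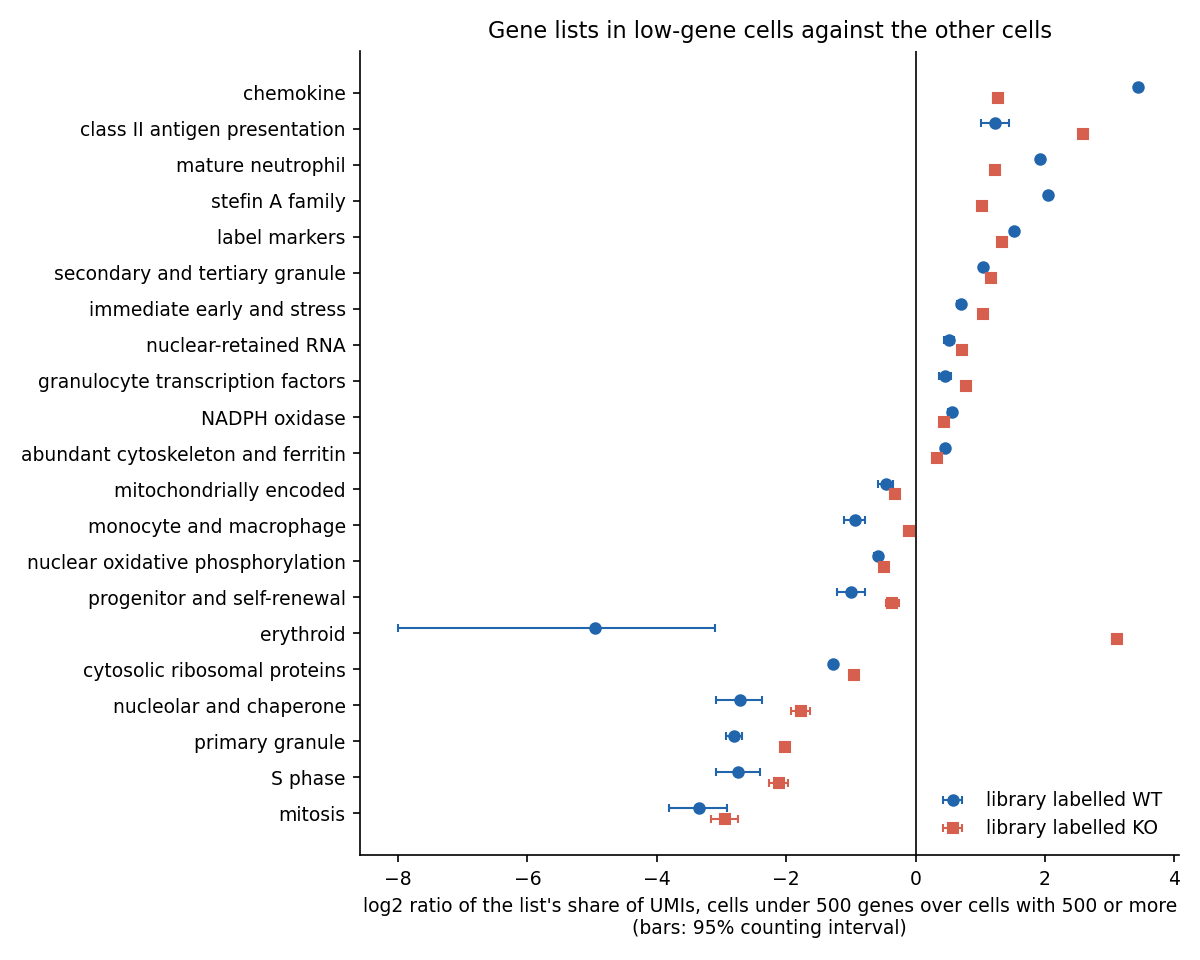
Log2 ratio of each gene list's share of UMIs, low-gene cells over the other cells of the same library (horizontal axis), with 95% counting intervals. Circles are the labelled-WT library and squares the labelled-KO library. Neutrophil lists lie to the right of 0 and primary granule, cell cycle, nucleolar and ribosomal lists to the left, while the erythroid list lies on opposite sides of 0 in the 2 libraries (-4.96 and 3.11).

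The libraries gave similar orders of genes. Of the 1361 tested genes, 1177 (86.5%) had a log2 ratio of the same sign in both libraries, with Pearson's r of 0.82 and Spearman's rho of 0.87 across genes. Genes are not independent replicates, and both ratios share the way in which cells were chosen.

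Because the groups differed in their share of marker-rich cells, marker-rich cells were also compared with each other: 166 low-gene cells against 1240 other cells (WT) and 443 against 965 (KO), each with 10% or more of its UMIs from the 4 markers. The levels of the 4 markers, and of the granule list that 3 of them belong to, are largely set by this cut and are not compared. Of genes outside the cut, Retnlg (3.62 and 4.12), Mmp8 (2.80 and 3.25), Ltf (1.61 and 2.16) and Mmp9 (1.76 and 2.09) had log2 ratios far above 0. Fcnb, a ficolin of immature neutrophils, had -0.78 and -0.65, and Chil3 had -0.70 and -0.44.

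The low values persisted among marker-rich cells as well. Mitosis genes had -3.80 and -3.01, S phase genes -2.91 and -2.12, primary granule genes -1.38 and -1.30 and ribosomal protein genes -0.71 and -0.76. Ube2c was at 16.3 against 305 CPM and at 38 against 356 CPM. Elane was at 319.6 against 1813 CPM and at 474 against 2782 CPM. Marker-rich low-gene cells had medians of 1092 and 990 UMIs, against 2303.5 and 1884 in the marker-rich cells with 500 or more genes.

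The marker-poor low-gene cells had a different set of transcripts from the remaining low-gene cells. The 14 cells of the labelled-WT library had a median of 900.5 UMIs and 474.5 genes, and the 175 cells of the labelled-KO library had 820 UMIs and 472 genes. Ribosomal protein genes took 23.7% and 12.7% of UMIs, against 5.05% and 4.44% in the remaining low-gene cells. Primary granule genes took 1.01% and 0.63%, against 0.19% and 0.30%. With only 14 cells, the values of the labelled-WT library rest on 12812 UMIs.

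The marker-poor low-gene cells were compared with marker-poor cells of 500 or more genes, which had more UMIs (medians of 2822 and 1754). The low-gene cells had a larger summed share of monocyte and macrophage transcripts, with mixed members, and a smaller share of mitosis transcripts. The monocyte and macrophage list had log2 ratios of 1.70 and 0.97, with Apoe, apolipoprotein E, at 3.54 and 2.13, and Ctss, cathepsin S, at 1.94 and 1.88. Its member Ly6c2, a surface antigen of monocytes, lay on the other side of 0, with -0.68 and -1.14, and Irf8, a transcription factor of monocytes and dendritic cells, had 0.37 and -0.028. Immediate early and stress genes had 1.42 and 1.32. Junb had 1.96 and 1.69 and Malat1 1.29 and 1.12. Mitosis genes had -3.22 (-6.27 to -1.37) and -3.45 (-4.11 to -2.86), the first from 0.0156% of the UMIs of 14 cells. Elane had -1.37 and -2.35. Ftl1, ferritin light chain, was at 16553 against 10219 CPM in the labelled-KO library. Mitochondrially encoded genes took 1.26% against 0.439% (WT) and 0.653% against 0.543% (KO), a raised share in the 14 cells of the labelled-WT library. The comparison cells paired on UMIs were matched to low-gene cells at large (533 of 695 in the labelled-KO library), not to the marker-poor ones. Their medians were 1064 and 1051 UMIs, against 900.5 and 820 in the marker-poor low-gene cells. These comparison cells came closer for some lists. Their monocyte and macrophage share was 0.91% and 0.59%, against 1.41% and 0.81% in the marker-poor low-gene cells. Their immediate early and stress share was 2.05% and 1.97%, against 2.26% and 2.50%. The part of depth in these values was not tested.

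Class II antigen presentation genes stood out in a small number of these cells. This list was assembled after H2-Eb1, H2-Aa and Cd74 appeared among the 10 genes with the highest ratios. Class II molecules present peptides on dendritic cells, macrophages and B cells, and Cd74 is their invariant chain. The list took 0.0784% against 0.0334% of UMIs in the labelled-WT library and 0.653% against 0.108% in the labelled-KO library, log2 ratios of 1.23 and 2.59. At least 2-fold higher in both libraries were 4 of 6 tested members, against 5.95% of all tested genes. H2-Eb1, H2-Aa and Cd74 are among these members, so the count was largely fixed by how the list was chosen and carries no weight against that share. Cd74 was at 479.6 against 52.6 CPM in the labelled-WT library and 3940.4 against 498 CPM in the labelled-KO library, log2 ratios of 3.19 and 2.99. In the labelled-WT library all 107 Cd74 UMIs came from 1 cell with 939 UMIs and 477 genes, and without it the list's ratio was -3.41. In the labelled-KO library, 37 of 695 low-gene cells (5.32%, 3.78 to 7.26) had 10 or more UMIs of the list, against 85 of 3545 other cells (2.40%, 1.92 to 2.96). These 37 cells held 95.5% of the list's UMIs in low-gene cells there. Their class II share was 13.1% of UMIs and their marker share 0.34%, so that they belonged to the marker-poor range.

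Against cells paired on UMIs, the class II list was lower in low-gene cells as a sum, with log2 ratios of -1.61 and -0.29. Only 533 of 695 low-gene cells had a pair in the labelled-KO library. The list took 0.515% of UMIs in these 533 cells, 0.631% in their pairs and 0.653% in all low-gene cells. Single members differed from the sum in the labelled-KO library, where H2-Ab1 had 0.32 (0.11 to 0.53), H2-Aa 0.19 and H2-Eb1 0.066, while Cd74 had -0.41. Ciita, the transactivator of class II genes, had 0 UMIs in low-gene cells of both libraries. Cd79a and Pax5, defining genes of B cells, were at 0 and 0 CPM in the labelled-WT library and at 1.5 and 0 CPM in the labelled-KO library. Cd79b, another member of the B cell list, was detected. It was at 87.0 CPM in marker-poor low-gene cells of the labelled-KO library, against 98.7 CPM in the other marker-poor cells. In the labelled-WT library these levels were 0 and 72.9 CPM. The B cell list had 25 UMIs in 19 low-gene cells (KO) and 3 UMIs in 2 low-gene cells (WT). C1qb, a complement gene of macrophages, was at 4.48 (WT) and 55.6 CPM (KO) in low-gene cells.

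A few cells set the values of other lists. Hemoglobin transcripts gave the erythroid list 0.502% of UMIs in low-gene cells of the labelled-KO library and 2 UMIs in all in the labelled-WT library. In the labelled-KO library 99.6% of globin UMIs lay in 1 cell, with 3191 globin UMIs of 4432 in total and 475 genes. Without that cell Hbb-bs had a log2 ratio of -4.56 in the labelled-KO library. In the labelled-WT library 1 cell with 3977 UMIs and 315 genes held 1774 UMIs of Cxcl2, a neutrophil-attracting chemokine, and 597 of the 614 UMIs of Ccl4. Cxcl2 had a log2 ratio of 4.81 with that cell and 1.71 without it, and 2.22 in the labelled-KO library. Ccl4 had 6.13 with that cell and 0.98 without it.

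Markers of other cell types were near the floor. B cell, megakaryocyte and platelet, eosinophil, basophil and mast cell, and stroma and endothelium lists had no member at a mean of 100 CPM or more. Each of these lists took at most 0.0117% of UMIs in low-gene cells of either library. Nkg7, the one tested member of the T and NK cell list, was at 8.96 against 196 CPM in the labelled-WT library and 75.2 against 317 CPM in the labelled-KO library, log2 ratios of -4.45 and -2.08, while Cd3g and Cd3d were at 6.01 and 6.01 CPM in low-gene cells of the labelled-KO library and at 0 UMIs in those of the labelled-WT library. Pf4, of platelets, and Mcpt8, of basophils, were at 3.01 and 3.01 CPM in the labelled-KO library and at 0 UMIs in the labelled-WT library. The monocyte and macrophage list took 0.143% against 0.276% of UMIs in the labelled-WT library and 0.241% against 0.259% in the labelled-KO library. Its log2 ratios were -0.94 and -0.11, and none of 5 tested members passed 2-fold in both libraries. Of all tested genes, 5.95% were at least 2-fold higher and 15% at least 2-fold lower in both. Ly6c2, a monocyte surface antigen, had log2 ratios of -1.07 and -0.69, and Ctss had -1.14 and 0.66. Against cells paired on UMIs the monocyte and macrophage list was lower in low-gene cells, with -2.66 and -1.49. There Apoe had -2.96 and -1.48, Ctss -3.78 and -1.80 and Ly6c2 -0.34 and -0.66.

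Low-gene cells of the 2 libraries were set side by side as a description of 2 libraries, not of 2 genotypes. Of 1211 genes with a sufficient level in these cells, 90 (7.43%) were at least 2-fold higher in the labelled-KO library and 29 (2.39%) at least 2-fold lower, and the median log2 ratio, KO over WT, was 0.15. The 4 markers differed by -0.22 (-0.24 to -0.21) as a sum. Lcn2 and S100a9 were lower in the labelled-KO library (-1.03 and -1.29), Camp had -0.30, and Ngp was slightly higher (0.30). Secondary and tertiary granule genes had 0.0039 (-0.014 to 0.021), an interval that includes 0.

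Mature neutrophil genes were lower in low-gene cells of the labelled-KO library, with -0.96 (-0.98 to -0.93). The stefin A list had -2.23, and its leading member BC100530 was at 11134 CPM (WT) and 2407 CPM (KO). Ltf, by contrast, was at 2443 and 3474 CPM (0.51). Primary granule genes had 0.67, S phase genes 0.95, nucleolar and chaperone genes 1.04 and immediate early and stress genes 0.59. The labelled-KO library also held more marker-poor cells among its low-gene cells (25.2% against 6.90%) and had the lower UMI totals, and their part in these values was not tested. In the cells with 500 or more genes the mature neutrophil and stefin A lists had KO over WT values of -0.26 and -1.22, in the same direction as in the low-gene cells. S phase genes had 0.33, nucleolar and chaperone genes 0.101 and immediate early and stress genes 0.24 there, also in the same direction, while primary granule genes had -0.11, in the opposite direction.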

How the data were processed

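Cells were measured with 10x Genomics 3′ single-cell RNA sequencing, 1 library for each of 2 pools of sorted leukemia cells. The authors deposited 1 aggregated matrix of raw UMI counts (27998 genes, 8309 cells), not normalized, made with Cell Ranger 1.3.1 against mm10 per the submitters' processing notes. The study's methods give another Cell Ranger version. The annotation used for counting is not given in the sources used here. Gene positions were looked up by Ensembl identifier in GENCODE M21 (GRCm38).

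Counts were summed over low-gene cells and over the other cells of each library and scaled to UMIs per 1000000 (CPM). Genes with a mean of 100 CPM or more over the 4 groups were called at 2-fold or more in the same direction in both libraries, after 0.5 UMIs were added to each sum. Cells were thinned without replacement to 300 UMIs. Python 3.11.15, numpy 2.4.6, scipy 1.17.1 and pandas 2.3.3 were used, and the code was tested on simulated data. Intervals cover counting error at the depth of each group. No doublet caller was run, no cell was removed, and the sources used here do not state that doublets were removed before deposit.

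Genes named in the text were the 4 markers, Kat2a, all secondary and tertiary granule genes, and the 3 members with the highest level in low-gene cells in each other list of up to 25 genes. To these were added the 2 highest and 2 lowest members of the 2 larger lists and the 10 highest and 10 lowest tested genes. The members and lists were chosen with earlier results of these data known, and genes or lists added later are named as such. Alternatives were other limits on genes, scalings, filters, cell weights and comparison cells.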

Additional observations from a re-analysis of the deposited data

Results flagged for a closer look

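The erythroid list and 4 named genes had log2 ratios, low-gene cells over the other cells, of opposite sign in the 2 libraries. The difference between the libraries was not tested, since each library is 1 sample. The erythroid list had -4.96 in the labelled-WT library and 3.11 in the labelled-KO library, and its member Hba-a1, a hemoglobin alpha gene, had -3.18 and 3.12. Without the 1 low-gene cell with most globin UMIs, the list had -4.50 in the labelled-KO library. The lysosomal protease gene Ctss had -1.14 and 0.66. The ferritin gene Ftl1 had -0.18 and 0.32, and the granule gene Chil3 had -0.32 and 0.087.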

How the results depend on the processing

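No paired analysis was possible because each genotype was captured as 1 library, with no replicate to block on, and no replicate could be left out. Of 64 alternative values of the main results, 23 stayed within the counting interval, or within 1.5 times for counts of genes and within 10% for genes at equal UMIs. The other 41 moved further. Only the log2 ratios of the markers could change sign, and 0 of them did. Counts of genes, shares of cells and ratios of medians cannot change sign. The marker share ratio was 1.52 (WT) and 1.33 (KO). It was 1.71 and 1.62 with a limit of 400 genes, 1.28 and 1.11 with 600, 1.28 and 1.18 with equal weight for each cell, and 1.84 and 1.53 when scaled to UMIs outside granule, mature neutrophil and S100 genes. It was 1.49 and 1.31 without the 10 low-gene cells with most UMIs, 0.62 and 0.89 against cells with 500 or more but under 1000 genes, 2.49 and 2.71 in cells paired on UMIs, and 1.37 and 1.18 without the 5% of cells with most UMIs. A minimum of 200 genes removed no cell, so its values are among those that stayed by construction. The KO over WT ratio of the markers in low-gene cells (-0.22) was -0.059 with a limit of 400 genes, -0.28 with equal weight and -0.36 with the scaling outside granule genes.

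The count of 81 genes at least 2-fold higher was 27 against cells with 500 or more but under 1000 genes, 49 in cells paired on UMIs, 476 with no CPM filter, 152 at 1.5-fold and 138 with median-of-ratios scaling. The count of 204 lower genes was 114 with a limit of 600 genes, 113 with equal weight, 114 with the scaling outside granule genes, 49 against cells with 500 or more but under 1000 genes, 376 at a mean of 50 CPM, 783 with no filter, 411 at 1.5-fold and 94 with median-of-ratios scaling. The share of low-gene cells (4.99% and 16.4%) was 0.74% and 4.55% with a limit of 400 genes, 13.6% and 30.4% with 600, 68.8% and 86.0% when a gene needed 2 UMIs, and 10.6% in the labelled-KO library with the common UMI floor, an alternative added after the data were seen. The ratio of median detected genes at 300 UMIs, whose direction the choice of cells sets, was 0.76 and 0.81, and 0.91 and 0.93 without granule and mature neutrophil genes.

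Among single lists and genes, 33 of 2298 alternative values changed sign. In cells paired on UMIs these were granulocyte transcription factors (-0.45, WT), nuclear-retained RNA (-0.68 and -0.25), immediate early and stress genes (-0.63 and -0.091), class II genes (-1.61 and -0.29), chemokines (-0.63, KO), Elane (0.13), Dut (0.011), Junb (-0.31), Mpo (0.21), H2-Eb1 (-0.42), H2-Aa (-1.42) and Cd74 (-1.41) in the labelled-WT library, and Cd74 in the labelled-KO library (-0.41). The monocyte and macrophage list was at 0.33 and 0.31 with a limit of 600 genes and at 0.10 (KO) with the scaling outside granule genes. The erythroid list (KO) was at -4.97 with a limit of 400 genes, -4.47 without the 10 cells with most UMIs and -4.50 without its leading cell. The class II list (WT) was at -3.47 with a limit of 400 genes and -3.41 without its leading cell. Against cells with 500 or more but under 1000 genes, nuclear-retained RNA was at -0.039 and the eosinophil, basophil and mast cell list at 0.16 (both WT). Of KO over WT ratios in low-gene cells, a limit of 400 genes gave 0.16 for NADPH oxidase, -0.30 for ribosomal protein genes, 0.20 for nuclear-retained RNA and -0.034 for the erythroid list, a limit of 600 genes gave -0.13 for the monocyte and macrophage list, the scaling outside granule genes gave -0.096 for ribosomal protein genes, and leaving out the 10 cells with most UMIs gave 0.43 for chemokines. Where the alternative's own cells or genes do not show it, the cause was not tested. Depth limits the lists at under 0.01% of UMIs, which rest on few UMIs in low-gene cells.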
